A study of Zea mays with 36 samples.

Results

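MIR168a and MIR168b (zma-MIR168a and zma-MIR168b in the deposited table) are the 2 maize loci whose transcripts carry the hairpin of the microRNA miR168. They were taken by name from a table of 63340 features, 154 of which are named microRNA precursors, and were followed through all 36 libraries of an embryo time course. The pair was chosen by its RPKM values across the stages of these same libraries, so every comparison of a MIR168 locus between stages is a description without a test. The rule by which they were chosen does not refer to a difference between the lines. Comparisons of the lines at single stages or averaged over stages are tested. An interaction of line with stage compares the courses themselves, so for the pair its p-values are given as a description.

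The libraries came from embryos of a maize line with high oil content and of a line with low oil content, at 6 stages spaced evenly between 15 and 40 days after pollination, with 3 libraries per line and stage. Seeds of every group had stood in water overnight before the embryo was taken out, and oligo(dT) beads were used to keep polyadenylated RNA. Each oil level is a single line, so that an effect of oil content and one of any other difference in genotype cannot be told apart. The labels do not say whether replicates came from separate plants or ears, so that p-values measure the spread between these libraries. Library totals ran from 41246928 to 66760037 reads. The embryo label was not checked against marker genes, because 0 of the 44146 annotated gene IDs of the table matched the names in the reference table. The libraries that correlated least with the rest of their own group were replicate 1 of 40 days (mean r over all tested features 0.934) and replicate 2 of 35 days (0.938) in high-oil embryos, and replicate 1 of 40 days (0.941) in low-oil embryos, against 0.944 to 0.980 in the other libraries. Next above them came replicate 1 of 35 days in high-oil embryos (0.944) and replicate 3 of 25 days in low-oil embryos (0.946), so no gap separates the 3 from the rest. Replicates 2 and 3 of 40 days in low-oil embryos had mean r of 0.9626 and 0.9746 with the 35-day libraries of their line, against 0.9516 and 0.9566 within their own group, and the mean r of 4 high-oil libraries (35-day replicates 1 and 2, 40-day replicate 1 and 30-day replicate 3) was also highest with a neighbouring stage. These 3 libraries, set apart in earlier results of these data, are left out together as an alternative in the comparisons of the lines. In bulk tissue, fewer cells of a type and less RNA per cell cannot be told apart.

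MicroRNAs are cut from the stem of a hairpin within a longer primary transcript, and the mature small RNA then guides an ARGONAUTE protein to transcripts that pair with it. The main targets of miR168 in plants are transcripts of ARGONAUTE1, the protein that carries most microRNAs, so that miR168 is part of a feedback loop on the microRNA pathway itself. In Arabidopsis the MIR168a and MIR168b loci differ in where they are transcribed. Poly(A)-selected libraries register the primary transcripts and not the mature microRNA, so the values below are levels of precursor RNA.

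Both hairpins were counted as features of 104 bases, the length that the steps of the deposited values imply and that the RefSeq gene table of maize B73 gives for both genes. In that table, which belongs to a later assembly than the one named per the submitters' processing notes, each hairpin lies wholly within 1 longer noncoding RNA gene. MIR168a lies in LOC115032952, which spans 1816 bases, and MIR168b lies in LOC100279302, which spans 2604 bases. How reads that overlap a hairpin and such a longer transcript were assigned is not given in the sources used here, nor is the treatment of reads that match both loci, which encode the same main mature microRNA. Levels are in RPKM, reads scaled to feature length and to the size of the library, and 1 read on a hairpin was worth 0.144 to 0.233 RPKM depending on the library. In all, 2843 reads fell on MIR168a and 2442 on MIR168b. MIR168a had reads in 34 of the 36 libraries and MIR168b in all 36.

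The precursors followed different courses. Both had their lowest mean at 15 days in each line, when MIR168a had 2 pooled reads in high-oil and 17 in low-oil embryos. MIR168b reached its highest levels at 20 to 25 days and was low again by 40 days, whereas MIR168a was highest at 35 to 40 days. In both lines MIR168b held the larger part of the reads of the 2 loci in young embryos, and MIR168a in most old ones.

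**Figure D1:**
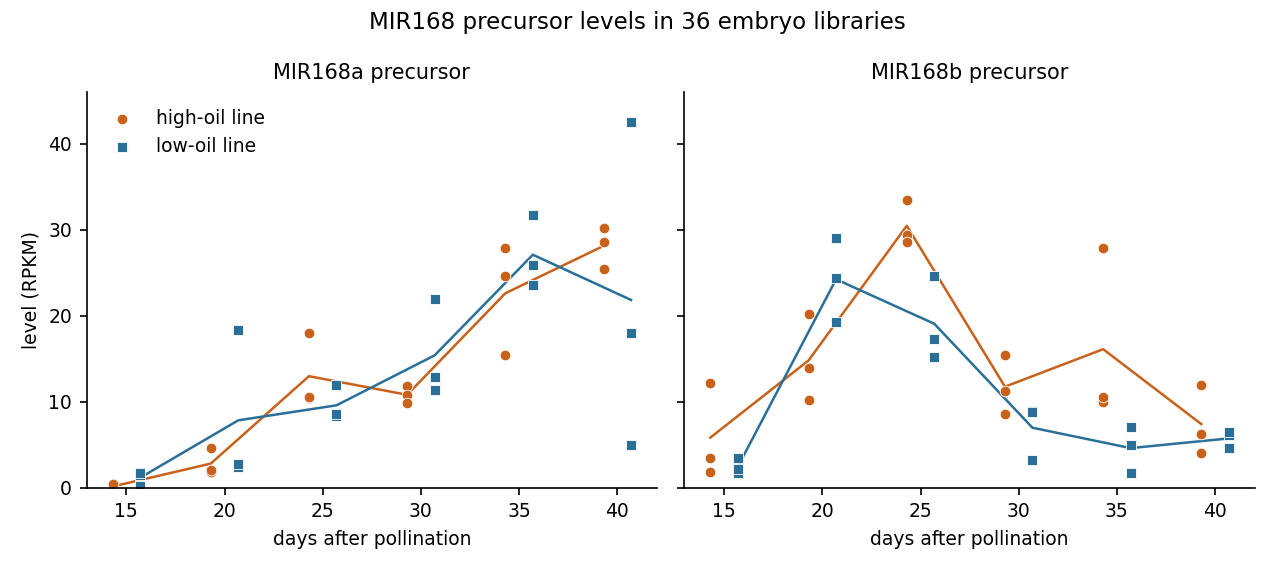
Levels of the MIR168a (left) and MIR168b (right) precursors in RPKM against days after pollination. Each point is 1 library, with the high-oil line as circles set to the left of each stage and the low-oil line as squares set to the right, and lines join the means of 3 libraries. MIR168a has means above 20 RPKM at 35 and 40 days in both lines, and MIR168b has its highest mean at 25 days in high-oil embryos (30.5 RPKM) and at 20 days in low-oil embryos (24.2 RPKM).

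In the youngest embryos MIR168a had few reads. At 15 days it had 0, 0 and 0.466 RPKM in the high-oil libraries, against 1.54, 0.220 and 1.75 RPKM in the low-oil libraries, in order of replicate number. These values rest on 2 reads in high-oil embryos and 17 in low-oil embryos. The count of 0 in high-oil replicates 1 and 2 allows levels of up to 0.639 and 0.556 RPKM (3 reads, counting error only). High-oil values lay at the low end and the groups overlapped.

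At 20 days MIR168a had 4.61, 1.82 and 2.02 RPKM in high-oil embryos, against 2.46, 2.78 and 18.3 RPKM in low-oil embryos. Low-oil replicate 3 stood far above the other 5 libraries of that age, with 99 reads. At 25 days the locus had 10.5, 18.0 and 10.5 RPKM in high-oil embryos, against 8.31, 8.54 and 11.9 RPKM in low-oil embryos. High-oil libraries of 25 days all lay above those of 20 days, whereas low-oil libraries of these ages overlapped because of that single 20-day library.

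From 30 days on MIR168a was at 9.86 RPKM or more in every library but low-oil 40-day replicate 1. At 30 days it had 11.8, 10.7 and 9.86 RPKM in high-oil embryos, against 11.3, 12.9 and 21.9 RPKM in low-oil embryos. At 35 days it had 24.6, 15.4 and 27.9 RPKM in high-oil embryos, against 31.7, 25.9 and 23.6 RPKM in low-oil embryos. All 35-day values lay above all 30-day values of the same line.

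At 40 days the libraries lay close together in high-oil embryos and far apart in low-oil embryos. MIR168a had 28.6, 25.5 and 30.2 RPKM in high-oil embryos (28.1 ± 2.42, SD, n = 3), against 5.01, 18.0 and 42.5 RPKM in low-oil embryos (21.8 ± 19.0, SD, n = 3). The low-oil values thus surrounded the high-oil ones, and both 40-day groups overlapped with the 35-day group of their line. Low-oil replicate 1, the lowest, is 1 of the 3 libraries set apart above. The 40 against 15 day difference of its line was 3.06 on the log2(RPKM + 1) scale with all libraries, 3.82 without replicate 1 and 2.39 without replicate 3, the highest.

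The order of the MIR168a means was 40, 35, 25, 30, 20 and 15 days in high-oil embryos and 35, 40, 30, 25, 20 and 15 days in low-oil embryos. In high-oil embryos the ranges of neighbours in this order overlapped except between 30 and 20 days and between 20 and 15 days. In low-oil embryos they overlapped except between 20 and 15 days. Set against 15 days, the 40-day level of MIR168a was higher by 4.68 (SE 0.52) on the log2(RPKM + 1) scale in high-oil embryos and by 3.06 (SE 0.52) in low-oil embryos. These SEs, like those below, rest on a spread shared by all groups. With only the compared groups fitted, the SE was 0.20 in high-oil and 0.77 in low-oil embryos. The log2(RPKM + 1) scale compresses the change where the start is near 0. With a pseudocount of 0.1 the high-oil value was 7.30, and with limma-voom on whole reads it was 7.32. In reads, 518 at 40 days stood against 2 at 15 days in high-oil embryos, a ratio of reads per total of 203 with a 95% counting interval of 55.9 to 1679. The low-oil ratio came from 417 reads at 40 days against 17 at 15 days in low-oil embryos, and was 19.2 with a 95% counting interval of 11.9 to 33.3.

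Part of the MIR168a difference was already present by 25 days. Relative to 15 days the 25-day level was higher by 3.58 (SE 0.52) in high-oil embryos and by 2.36 (SE 0.52) in low-oil embryos, on the log2(RPKM + 1) scale. The pooled reads per total at 40 days stood over those at 25 days by a ratio of 2.19 (95% counting interval 1.85 to 2.59) in high-oil embryos and 2.41 (2.01 to 2.89) in low-oil embryos. Without low-oil 40-day replicate 3, the log2 difference between 40 and 25 days in that line was 0.030, against 0.70 with it and 1.46 without replicate 1. The 40-day end of the low-oil course thus rests on single libraries. At 35 days all libraries of that line (23.6 to 31.7 RPKM) lay above its 25-day libraries (8.31 to 11.9 RPKM).

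MIR168b was the more abundant precursor early on. At 15 days it had 12.1, 3.52 and 1.86 RPKM in high-oil embryos, against 3.46, 1.76 and 2.19 RPKM in low-oil embryos. High-oil replicate 1, with 57 of the 84 reads of its group, stood above the other 5 libraries. At 20 days MIR168b had 10.2, 20.2 and 14.0 RPKM in high-oil embryos, against 29.1, 19.2 and 24.4 RPKM in low-oil embryos. All low-oil libraries of 20 days lay far above those of 15 days, while the high-oil libraries of these ages overlapped through replicate 1 of each.

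The high-oil line had its highest MIR168b levels at 25 days. They were 29.4, 28.6 and 33.4 RPKM (30.5 ± 2.59, SD, n = 3), against 15.2, 24.7 and 17.3 RPKM in low-oil embryos (19.1 ± 4.96, SD, n = 3). The lines did not overlap at this age. Within high-oil embryos, no library of 20 or 30 days reached the 25-day values. In low-oil embryos the 20-day mean of 24.2 ± 4.92 RPKM (SD, n = 3) was the highest, and its libraries overlapped with those of 25 days, so the age of the low-oil peak is not resolved between these stages.

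MIR168b then stood lower. At 30 days it had 11.3, 8.53 and 15.5 RPKM in high-oil embryos, against 3.24, 8.91 and 8.80 RPKM in low-oil embryos. At 35 days it had 9.93, 27.9 and 10.5 RPKM in high-oil embryos, against 4.96, 1.78 and 7.12 RPKM in low-oil embryos. High-oil replicate 2 of 35 days stood above the other 5 libraries of that age, with 154 reads, and it had the lowest MIR168a level of its group. This library is also among those set apart by their low correlation with their own group. At 40 days MIR168b had 11.9, 6.29 and 4.03 RPKM in high-oil embryos, against 6.16, 4.61 and 6.45 RPKM in low-oil embryos. The 40-day groups overlapped with each other and with the 35-day groups.

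The order of the MIR168b means was 25, 35, 20, 30, 40 and 15 days in high-oil embryos, where only the 25-day range stood clear of the next. In low-oil embryos the order was 20, 25, 30, 40, 35 and 15 days, and only the step between 25 and 30 days was free of overlap. Set against 15 days, the 25-day level was higher by 2.50 (SE 0.45) in high-oil embryos and by 2.53 (SE 0.45) in low-oil embryos on the log2(RPKM + 1) scale. Set against 25 days, the 40-day log2 difference was -2.01 (SE 0.45) in high-oil embryos and -1.56 (SE 0.45) in low-oil embryos. Between the ends of the course the differences were smaller: 40 against 15 days gave 0.49 (SE 0.45) in high-oil embryos and 0.98 (SE 0.45) in low-oil embryos. The ratio of reads per total was 1.21 (95% counting interval 0.914 to 1.61) in high-oil embryos, where these ages overlapped. It was 2.27 (1.54 to 3.41) in low-oil embryos, where all 40-day libraries (4.61 to 6.45 RPKM) lay above the 15-day ones (1.76 to 3.46 RPKM). The span between the end points thus leaves out most of the course of this locus. In reads per total the 25-day level was 5.23 times the 15-day level in high-oil embryos (95% counting interval 4.14 to 6.67) and 7.61 times in low-oil embryos (5.39 to 11).

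RPKM values carried a shift common to most features. The median log2 difference between 40 and 15 days over all 28048 tested features was -0.24 in both lines, and 0.03 in high-oil and 0.02 in low-oil embryos with median-of-ratios scaling. Under that scaling the 40 against 15 day difference of MIR168a was 4.84 in high-oil embryos and 3.29 in low-oil embryos, and that of MIR168b was 0.83 in high-oil and 1.28 in low-oil embryos. The direction of no stage difference given above for either locus changed with the scaling.

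**Figure D2:**
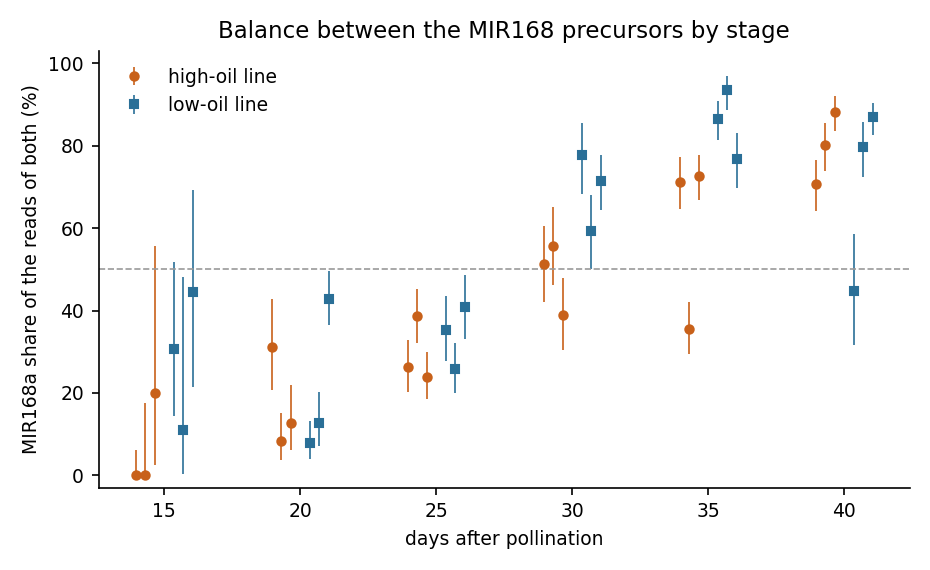
Share of MIR168a among the reads of both precursors, in percent, against days after pollination, with 1 point per library and exact 95% binomial intervals. High-oil libraries are circles on the left of each stage and low-oil libraries squares on the right, and the dashed line marks equal reads. All libraries lie below it up to 25 days, and at 30 days all low-oil but only 2 of 3 high-oil libraries lie above it.

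Because both hairpins have the same counted length, their reads within a library can be compared directly, free of library scaling. At 15, 20 and 25 days 0 of 18 libraries had more reads on MIR168a than on MIR168b. At 30 days 2 of 3 high-oil and 3 of 3 low-oil libraries did. At 35 days 2 of 3 and 3 of 3 did, and at 40 days 3 of 3 and 2 of 3.

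The share of MIR168a among the reads of both loci averaged 6.67% ± 11.5, 17.3% ± 12.1, 29.6% ± 7.89, 48.6% ± 8.71, 59.8% ± 21.0 and 79.7% ± 8.81 from 15 to 40 days in high-oil embryos (SD, n = 3 each). In low-oil embryos the share averaged 28.8% ± 16.8, 21.1% ± 19.0, 33.9% ± 7.61, 69.4% ± 9.43, 85.6% ± 8.41 and 70.4% ± 22.5. At 30 days the shares ran from 38.9% to 55.8% in high-oil embryos and from 59.2% to 77.8% in low-oil embryos, without overlap. At 35 days they ran from 35.6% to 72.6% in high-oil embryos and from 76.8% to 93.6% in low-oil embryos, again without overlap. The low-oil line thus had the larger MIR168a share at both of these ages, a description for which no test is given. Few reads carry the earliest shares: at 15 days a library had 9 to 57 reads on both loci, and the exact 95% interval of the low-oil replicate 3 share of 44.4% ran from 21.5% to 69.2%.

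Shares also varied within groups. High-oil 35-day replicate 2 had a MIR168a share of 35.6% (exact 95% interval 29.5% to 42.0%), beside 71.2% and 72.6% in the other libraries of its group. Low-oil 40-day replicate 1 had 44.8% (31.7% to 58.5%), beside 79.6% and 86.8%. Low-oil 20-day replicate 3 had 42.9% (36.4% to 49.5%), beside 7.79% and 12.6%. These intervals cover the counting of reads and not the spread between libraries, which the SDs above give.

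**Figure D3:**
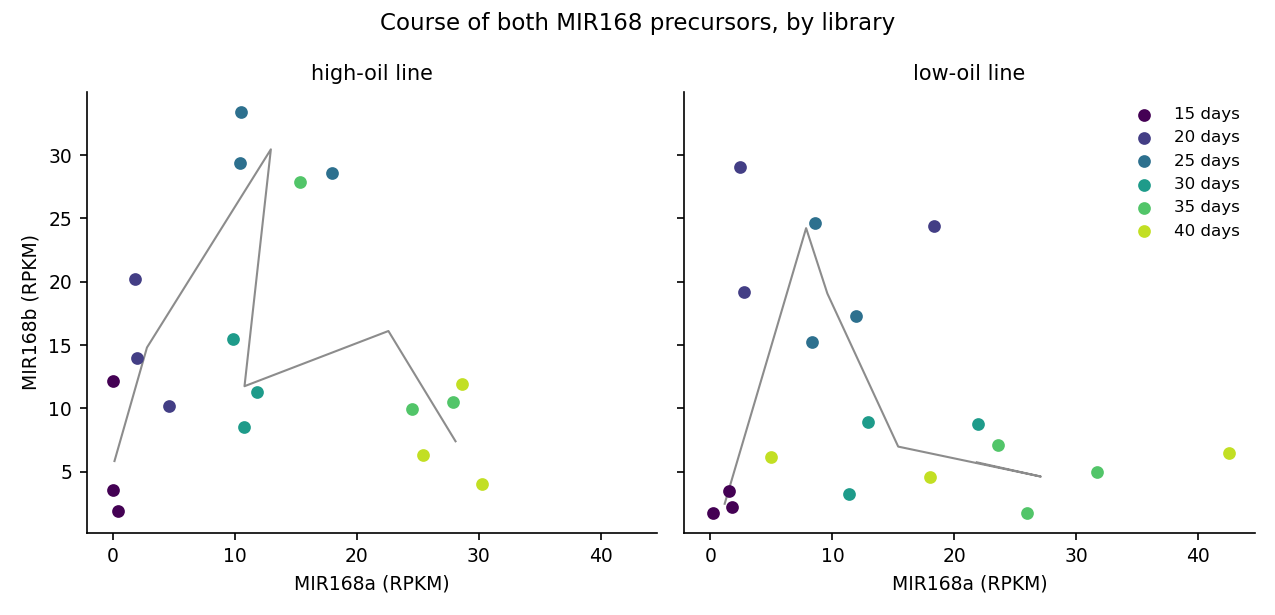
Level of MIR168b against level of MIR168a, both in RPKM, with 1 point per library coloured by days after pollination, for the high-oil line (left) and the low-oil line (right). The grey line joins stage means in order of age. It rises along the MIR168b axis until 25 days in the high-oil line and 20 days in the low-oil line, and stands lower on that axis at 30 days. By 35 days it lies further out along the MIR168a axis in both lines. From 35 to 40 days it runs further out in the high-oil line and back in the low-oil line.

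Across the 36 libraries the log2(RPKM + 1) values of the loci had a Pearson r of 0.16, a description of libraries that share the same stages and lines. The sum of both loci averaged 6.0 ± 5.35, 17.6 ± 3.89, 43.4 ± 3.35, 22.6 ± 3.07, 38.7 ± 4.37 and 35.5 ± 4.50 RPKM from 15 to 40 days in high-oil embryos (SD, n = 3 each). In low-oil embryos it averaged 3.64 ± 1.53, 32.1 ± 10.4, 28.7 ± 4.87, 22.4 ± 8.09, 31.7 ± 4.55 and 27.6 ± 19.4 RPKM. Summed precursor levels were lowest at 15 days in both lines, and from 20 days on the group means stayed between 17.6 and 43.4 RPKM.

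Most named microRNA precursors of the table were not seen in these libraries: 116 of the 154 were listed at 0 throughout. The MIR168 pair was chosen by its RPKM values in these libraries, so its rank among the precursors is a description only. By RPKM, which divides reads by the counted feature length, MIR168a ranked first in 14 libraries and MIR168b in 12, so that 1 of the pair led in 26 of 36. MIR168b never ranked below sixth, whereas MIR168a ranked between 1 and 17. MIR168a led in every 40-day library of the high-oil line and every 30-day and 35-day library of the low-oil line, and MIR168b in every 25-day library of both lines and every 20-day library of the low-oil line. Together the loci held 8.49% ± 5.65 of the summed RPKM of all named precursors at 15 days in high-oil embryos (SD, n = 3), and 57.1% ± 3.24 at 25 days and 54.7% ± 13.8 at 40 days. In low-oil embryos they held 12% ± 5.27, 60.3% ± 7.26 and 67.6% ± 7.84 at these ages.

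The comparison of the lines asked whether high-oil and low-oil embryos of the same age carried different levels of either precursor. Averaged over stages, neither of the 2 loci was called different (limma, adjusted p below 0.05 over all features and at least 1 log2 unit), against 5.83% of the 28048 features tested, 2.86% as higher in high-oil embryos. MIR168a was lower in high-oil embryos by 0.20 on average, with a log2 difference of -0.20 (95% interval -0.63 to 0.23, limma adjusted p = 0.52; -0.29 without the 3 libraries set apart), and lay higher there at 2 of 6 stages. MIR168b was higher in high-oil embryos by 0.54 (95% interval 0.16 to 0.92, limma adjusted p = 0.027, unadjusted p = 0.0073), at 5 of 6 stages. Its adjusted p passed but its size stayed under 1 log2 unit, so it was not called. With line labels permuted within stages, the two-sided permutation p was 0.019 for MIR168b and 0.41 for MIR168a (100000 resamples, unadjusted, 18 libraries per line). The adjusted p of MIR168b ran from 0.0083 to 0.087 over the alternatives, and it was 0.087 without the 3 libraries set apart (log2 0.41), 0.052 with limma-voom, 0.050 without replicate 2 of the high-oil embryos of 35 days and 0.051 without its low-oil counterpart.

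**Figure D4:**
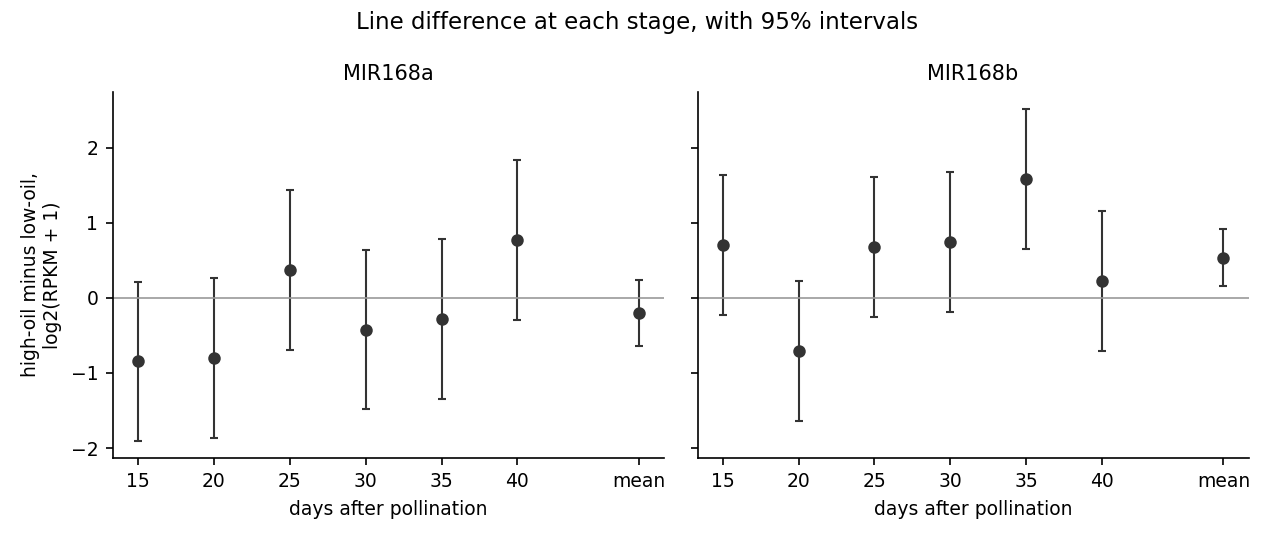
High-oil minus low-oil difference on the log2(RPKM + 1) scale for MIR168a (left) and MIR168b (right) at each stage and averaged over stages (mean), with 95% intervals from the limma fit. The intervals of MIR168a all include 0, and those of MIR168b exclude it at 35 days (1.59) and for the mean (0.54).

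At single stages, 1 of 12 comparisons was called. At 35 days MIR168b was higher in high-oil embryos, with a mean of 16.1 ± 10.2 RPKM, against 4.62 ± 2.69 RPKM in low-oil embryos (SD, n = 3 each). The log2 difference was 1.59 (SE 0.45, limma adjusted p = 0.016), the 3 high-oil libraries all lay above the low-oil ones, and 8.27% of all features were called at this stage, 3.14% as higher in high-oil embryos. The exact two-sided permutation p was 0.1, below which 3 against 3 libraries cannot go. The call rests on single libraries: it ended without high-oil replicate 2 (log2 1.13, limma adjusted p = 0.13), without low-oil replicate 2 (log2 1.15, adjusted p = 0.14), without the 3 libraries set apart (log2 1.13, adjusted p = 0.10), and when only the compared groups were fitted (adjusted p = 0.14). The median over all features was -0.11 at this age and -0.13 at 25 days on the RPKM scale. With median-of-ratios scaling, which brought it near 0, the MIR168b difference at 35 days was 1.74 (limma adjusted p = 0.013).

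At 25 days the high-oil libraries also all lay above the low-oil ones for MIR168b, but the log2 difference of 0.67 (95% interval -0.26 to 1.60) was not called (limma adjusted p = 0.35), where 7.36% of all features were. At 20 days the sign was the other way, with a log2 difference of -0.71 (95% interval -1.64 to 0.23, limma adjusted p = 0.41). The remaining stages gave log2 differences for MIR168b of 0.71 at 15 days, 0.74 at 30 days and 0.22 at 40 days, none of them called. The value at 40 days was -0.14 without high-oil 40-day replicate 1.

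For MIR168a the log2 differences between lines were -0.85, -0.80, 0.37, -0.42, -0.28 and 0.77 from 15 to 40 days, each with an SE of 0.52. None of these 6 was called by limma with Benjamini-Hochberg adjustment, and the unadjusted p was above 0.05 at each, the smallest being 0.11 at 15 days. Of all features, 5.72% were called at 15 days, 6.85% at 20 days, 7.36% at 25 days, 6.3% at 30 days, 8.27% at 35 days and 6.88% at 40 days. At 15 days, where the high-oil line had 2 reads against 17, the ratio of reads per total was 0.117 (95% counting interval 0.0131 to 0.494). That difference was called with a pseudocount of 0.1 (log2 -2.47, limma adjusted p = 0.023) but not with limma-voom on whole reads (log2 -2.52, adjusted p = 0.40). At 20 days the difference of -0.80 became 0.0071 without low-oil replicate 3. At 40 days the difference of 0.77 was 0.014 without low-oil replicate 1 and 1.44 without low-oil replicate 3, uncalled in each case.

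Whether the lines differed in their change with age was examined by an interaction. The pair was chosen by its course over the stages in each line. The p-values of the interaction and of the F test below are thus a description. The 40 against 15 day difference of MIR168a was larger in high-oil embryos by 1.61 (SE 0.73, unadjusted p = 0.036), which did not pass over all features (limma adjusted p = 0.33), where 2.74% of features were called. Without the 3 libraries set apart it was 0.85 (limma adjusted p = 0.61). For MIR168b the interaction was -0.49 (SE 0.64, limma adjusted p = 0.85). A limma F test of line by stage over all 6 stages, added after the values were seen, gave F = 1.56 for MIR168a (adjusted p = 0.47) and F = 2.74 for MIR168b (unadjusted p = 0.039, adjusted p = 0.20), where 6.68% of features had an adjusted p below 0.05. A difference in course between the lines, such as in the age at which MIR168b peaked, was not established by these tests.

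**Figure D5:**
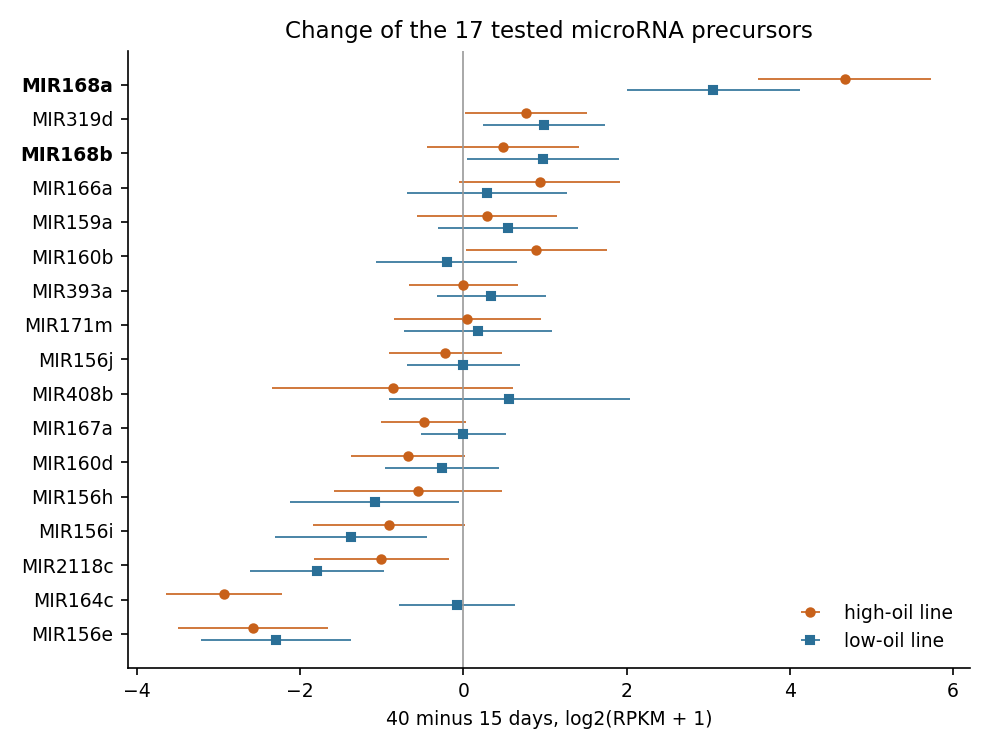
Difference between 40 and 15 days on the log2(RPKM + 1) scale for the 17 microRNA precursors that passed the filter on low values, with 95% intervals, the high-oil line as circles above and the low-oil line as squares below. MIR168a has the largest positive value in both lines (4.68 and 3.06), and MIR156e, MIR164c in high-oil embryos and MIR2118c lie on the negative side. The MIR168 loci were chosen by their values across these stages, so their place here is a description without a test.

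Of the other 152 named precursors, 15 passed the filter of 1 RPKM in at least 3 libraries. Between 15 and 40 days 0 of these 15 rose and 3 fell in high-oil embryos, where 31.5% of all features were called, 10.3% higher and 21.2% lower. In low-oil embryos 0 rose and 3 fell, where 32.3% were called, 11% higher and 21.4% lower. The median log2 difference of the 15 was -0.49 in high-oil embryos and 0 in low-oil embryos, beside -0.24 over all features in each. After median-of-ratios scaling the high-oil counts were 0 higher and 2 lower, and the low-oil counts 1 higher and 3 lower. MIR156e, of the family that targets SPL transcription factors, fell to 0.148 ± 0.154 RPKM at 40 days in high-oil embryos, against 6.21 ± 2.60 RPKM at 15 days. It fell to 1.57 ± 2.28 RPKM at 40 days in low-oil embryos, against 8.91 ± 2.19 RPKM at 15 days (SD, n = 3). MIR2118c fell in both lines too (log2 -1.0 in high-oil and -1.80 in low-oil embryos, limma adjusted p = 0.036 and 0.00038). Its high-oil value lay at the threshold of 1 log2 unit, with 7.78 ± 2.11 RPKM at 15 days and 3.93 ± 2.86 RPKM at 40 days (SD, n = 3). The others that fell were MIR164c in high-oil embryos (log2 -2.93), listed at 0 there at 40 days, and MIR156i in low-oil embryos (log2 -1.38). MIR164c, of the family that targets NAC transcription factors, and MIR408b, of a family that targets transcripts of copper proteins, were called between the lines averaged over stages, both higher in high-oil embryos (log2 1.82 and 2.22). They were the only ones of the 15 called there, where 5.83% of all features were called, 2.86% as higher in high-oil embryos. MIR164c passed the filter only through high-oil libraries, with low-oil means of at most 0.0712 RPKM. The median of the 15 was 0.01, beside -0.07 over all features. At single stages 2 of the 15 were called higher in high-oil embryos at 15 days and 1 at each later stage. Of all features 5.72% to 8.27% were called at these stages, in either direction. MIR319d, of the family that targets TCP transcription factors, was called at 20 days, where it was lower in high-oil embryos (log2 -1.13, limma adjusted p = 0.041) and 3.54% of all features were called lower.

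No other tested precursor followed MIR168a closely over the 36 libraries. On log2(RPKM + 1) values the highest Pearson r among precursors was 0.56 for MIR319d and 0.46 for MIR166a, and the lowest was -0.65 for MIR156e and -0.57 for MIR156i. For MIR168b, examined after its values were seen, the highest r among precursors was 0.44 for MIR166a and 0.28 for MIR164c, and the lowest was -0.47 for MIR156e and -0.14 for MIR156h. MIR166a, of the family that targets class III HD-ZIP transcription factors, averaged 3.75 ± 1.40 RPKM at 25 days in high-oil embryos and 3.24 ± 1.94 RPKM in low-oil embryos (SD, n = 3), its highest group mean in each. Among all features the annotated genes Zm00001d037376 and Zm00001d011663 had the highest r with MIR168a (0.92 each), and Zm00001d016182 (-0.92) and Zm00001d021583 (-0.91) the lowest. For MIR168b the extremes were Zm00001d034824 (0.80) and Novel07524 (0.79) at the high end, and Zm00001d054009 (-0.88) and Zm00001d013412 (-0.86) at the low end. These r values are extremes of 28047 features that share the libraries and their stages. Zm00001d037376 averaged 108.6 RPKM at 40 days and 1.95 RPKM at 15 days in high-oil embryos, and 81.0 RPKM at 40 days and 2.76 RPKM at 15 days in low-oil embryos.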

How the data were processed

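The authors deposited RPKM values, 1 column per library, and 0 columns were left unused. FastQC, TopHat2, Cufflinks and the build B73 RefGen_v4 are named per the submitters' processing notes. How reads were counted, against which annotation release and whether by strand is not given in the sources used here. Whole reads were recovered from the steps of the RPKM values: 100.0% of the 51853 features above 0 resolved within 0.0001 reads. Counting intervals are exact binomial and, like limits of 3 reads, cover counting error only, since PCR copies are not independent molecules.

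The main test was limma 3.58.1 (R 4.3.3) on log2(RPKM + 1), with 1 mean per group over 36 libraries, a mean-variance trend, and Benjamini-Hochberg adjustment over the 28048 features at or above 1 RPKM in 3 or more libraries. Both MIR168 loci passed this filter. Permutation tests were run in Python 3.11.15. The members, lists, tests and the 3 libraries set apart were chosen with earlier results of these data known. Named genes were the members, other precursors called in the same comparisons, and the 2 features and 2 precursors with the highest and lowest r. The planned list of microRNA pathway genes and the marker lists could not be paired with the table's IDs and were not analysed here. Alternatives were a pseudocount of 0.1, quantile normalization, scaling by median of ratios, other filters on low values, limma-voom on the recovered reads, only the groups compared, the 3 libraries left out together, a replicate block, and each library left out. Some of those for MIR168b were added after the data were seen.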

Additional observations from a re-analysis of the deposited data

Results flagged for a closer look

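The interaction of line with age was called for the MIR164c precursor (log2 -2.86, SE 0.49, limma adjusted p = 0.00041). This precursor was listed at 0 in all 40-day libraries of both lines, and averaged 6.63 ± 0.471 RPKM at 15 days in the high-oil line against 0.0529 ± 0.0461 RPKM in the low-oil line (SD, n = 3). Low-oil means never exceeded 0.0712 RPKM, so MIR164c passed the filter only through high-oil libraries and had no room to fall in the low-oil line. The interaction thus restates the 15-day line difference and cannot show whether the lines differ in their change with age. Neither MIR168 locus was called for this interaction.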

How the results depend on the processing

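The comparisons of the lines, the changes between 40 and 15 days and the counts of other precursors gave 1124 values under alternative settings, of which 1109 kept their direction and their side of the threshold or stayed within the replicate spread. Most of these values leave out 1 library, and a library outside the compared groups cannot move a log2 difference, so the count says little about robustness. A result that stayed uncalled also counted as kept when its adjusted p moved. For MIR168b averaged over stages the limma adjusted p ran from 0.0083 to 0.087. With a pseudocount of 0.1, the 15-day line difference of MIR168a became called (-2.47), its high-oil change between 40 and 15 days was 7.30 (7.32 with limma-voom), and the other precursors called were 6 in the high-oil change and 4 between the lines, against 3 and 2. The cause was not tested. The 35-day line difference of MIR168b was no longer called without the 3 libraries set apart (1.13) or with only the groups compared (1.59, limma adjusted p = 0.14). The SE with only the groups compared was 0.52, against 0.45 in the main fit. The 40-day line difference of MIR168b was -0.095 without those 3 libraries, and its low-oil change between 40 and 15 days was 1.28 with median-of-ratios scaling.

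With each library left out in turn, the line difference of MIR168b ran from 1.13 to 1.92 at 35 days and from -0.14 to 0.53 at 40 days, its interaction from -0.96 to 0.14, the 20-day line difference of MIR168a from -1.23 to 0.0071, and the other precursors called in the low-oil change from 2 to 5. With the replicate number as a block no call changed (MIR168b at 35 days 1.59, adjusted p = 0.021). Deviations from group means correlated above 0.1 in 5 of 18 same-numbered pairs of the lines, with r from -0.30 to 0.39. The r values were 0.39, 0.31 and 0.098 at 40 days and -0.11, -0.30 and -0.19 at 35 days. Pairs with different numbers were not examined, so this check cannot decide whether replicate numbers pair the libraries. At 0.144 to 0.233 RPKM per read, depth limits the 15-day values most.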
